A study of Mus musculus with 2 samples.

Results

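The ligands and receptors of the IL34 and CSF1 axis were followed across brain metastasis sections from mouse. They are 5 of the 19465 genes in the files, chosen by name: *Il34* and *Csf1*, which encode the ligands of the receptor tyrosine kinase CSF1R, *Csf1r* itself, and *Ptprz1* and *Sdc1*, which encode further receptors of IL34. The data were 2 formalin-fixed, paraffin-embedded (FFPE) cerebellar sections, each 5 µm thick and described as biological duplicates of 1 condition. Both carried the genotype label HP and no treatment, and were read by Visium CytAssist, in which pairs of probes bind mouse transcripts in the tissue, are joined, and pass onto a grid of spots with known barcodes, where each joined pair is counted once by its unique molecular identifier (UMI). HP organoids came from mammary tumors of C57BL/6J mice with a human HER2 V777L transgene, driven by an actin promoter behind a Lox-STOP-Lox element, and PIK3CA H1047R. Cre was delivered by adenovirus into the mammary gland, and the organoids were labeled with luciferase and injected into the cerebellum of B6 mice with an intact immune system. The titles call the organoids HP-F1 +cre for section 1 and HP-B6 +cre for section 2, while the cell line tag is B6-HP for both, so whether the sections share 1 organoid line is not settled. The labels give no age, the study's methods give injection coordinates for 5-month-old mice, and the study describes that mice of this model were killed after imaging at 3 weeks. No section without a tumor was analysed here, so every comparison was made between regions of the same sections.

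CSF1R sits on microglia and macrophages, which need its signal to survive and multiply. In the brain, IL34 comes mainly from neurons and CSF1 mainly from glia. For the cerebellum the study states, with a reference, that neurons do not express IL34. PTPRZ1 is a receptor tyrosine phosphatase and chondroitin sulfate proteoglycan of glia and their precursors, and syndecan-1, the product of *Sdc1*, is a heparan sulfate proteoglycan of epithelial cells and plasma cells. In the GRCm38.p6 annotation of RefSeq, *Il34* lies on chromosome 8 at 110741829 to 110805949, *Csf1* on chromosome 3 at 107741048 to 107760469, *Ptprz1* on chromosome 6 at 22875315 to 23052916 and *Sdc1* on chromosome 12 at 8771396 to 8793716. Their identifiers in the files were ENSMUSG00000031750 for *Il34*, ENSMUSG00000014599 for *Csf1*, ENSMUSG00000024621 for *Csf1r*, ENSMUSG00000068748 for *Ptprz1* and ENSMUSG00000020592 for *Sdc1*.

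Each spot covers more than 1 cell as a rule, and often cells of different types. Spots were sorted by marker genes outside the 5, on UMIs per 1000000 UMIs of the spot (CPM). Edge spots held at least 1000 CPM of *Arg1*, the arginase of alternatively activated macrophages. Tumor spots held at least 10000 CPM of *Col1a1* and *Col3a1* in section 1, or at least 5000 CPM of *Epcam*, *Krt7* and *Krt8* in section 2. Neural spots had a tumor marker sum under 10% of that threshold and at least 1000 CPM of a sum of neuron and myelin markers that includes *Snap25* and *Mbp*, and all others were kept as remaining spots. Section 1 gave 751 tumor, 125 edge, 2085 neural and 354 remaining spots, and section 2 gave 683, 250, 2554 and 512. The spots that passed both the tumor and the edge rule, 55 and 54, were counted as edge.

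The tumor spots of the sections differed in kind, as far as the different rules allow this to be seen. The fibroblast list holds both collagen genes of the rule for section 1 and the epithelial list the 3 genes of the rule for section 2, so their other members were also summed, on the TMM-scaled CPM explained in the next paragraph. The 4 other fibroblast markers summed to 24834 CPM in tumor spots of section 1 and 201.0 CPM in those of section 2. The 4 other epithelial markers summed to 11.8 and 1997 CPM. The rule genes of section 2 were low in the tumor spots of section 1, which they did not choose, with *Epcam* at 6.50 CPM, *Krt7* at 2.78 CPM and *Krt8* at 22.6 CPM without TMM scaling. The tumor spots of section 1 therefore went against an epithelial label, and are called collagen-rich here. Tumor spots were also deeper, with a median of 54625 and 42238 UMIs against 7748 and 9718.5 in neural spots, and 3096 barcodes were shared by both sections because they mark positions of the same array design. Since the sections differ this much, the value of each is given before any test over both.

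For each region of each section the UMIs were summed, scaled by the TMM method and given as CPM, with an exact Poisson interval at the 95% level that covers counting error only. The 8 sums entered edgeR's quasi-likelihood test, in which the section was a block, and a gene was called at a Benjamini-Hochberg adjusted p below 0.05 over the 19157 genes tested. These p-values rest on 2 sections and 3 residual degrees of freedom. The fit also drew each gene's spread toward that of the other genes, which adds borrowed degrees of freedom. Levels in a region cannot tell more cells of a type from more RNA per cell, and levels of different genes are not compared with each other because each is read by its own probes.

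**Figure D1:**
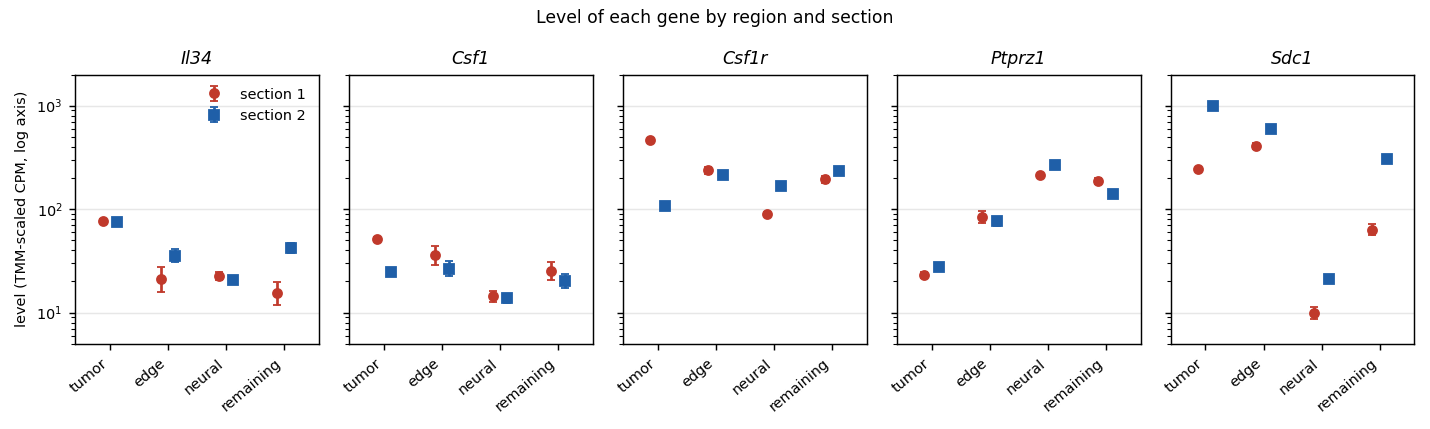
Level of the 5 genes (TMM-scaled CPM, log axis) in tumor, edge, neural and remaining spots of section 1 (red circles) and section 2 (blue squares), with exact Poisson intervals for counting error. *Il34* was 77.2 and 75.6 CPM in the tumors, while *Csf1r* in tumor spots was 462 CPM in section 1 and 108 CPM in section 2.

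*Il34* was highest in the tumor spots of both sections. Its level there was 77.2 CPM (74.3 to 80.2) in section 1 and 75.6 CPM (72.3 to 79.1) in section 2. In neural spots it was 22.6 CPM (20.6 to 24.7) and 20.5 CPM (18.9 to 22.2). The collagen-rich and the epithelial tumor thus carried like levels of this ligand, each above its own neural tissue with no overlap of the intervals. The fold was 3.37 and 3.63 within the sections, and the fitted log2 fold change was 1.82 with a standard error of 0.41 (edgeR adjusted p = 0.019). *Il34* was among the 17.9% of genes that were higher in tumor than in neural spots, a comparison in which a further 16.9% were lower.

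At the edge, *Il34* lay near the neural level. It was 21.3 CPM (16.0 to 27.9) in edge spots of section 1, from 53 UMIs, and 35.6 CPM (30.6 to 41.1) in section 2. The edge value of section 1 overlapped its neural value, while that of section 2 was 1.72 times its neural value. No difference between edge and neural spots was called (log2 fold change 0.34, standard error 0.41, edgeR adjusted p = 0.63). Against tumor spots the log2 fold change of the edge was -1.48 with a standard error of 0.42, and was not called (edgeR adjusted p = 0.18), though it was by DESeq2 (log2 fold change -1.57, adjusted p = 0.011). The direction was the same in both sections, where the edge level was 0.281 and 0.474 times the tumor level.

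*Csf1*, the other ligand, differed more between the sections. In tumor spots it was 51.1 CPM (48.8 to 53.6) in section 1 and 24.4 CPM (22.6 to 26.4) in section 2. In edge spots it was 36.2 CPM (29.1 to 44.5) and 26.7 CPM (22.4 to 31.5). In neural spots it was 14.4 CPM (12.8 to 16.1) and 13.8 CPM (12.5 to 15.2). Neural spots were the lowest region of each section, and in section 2 the tumor and edge intervals overlapped. *Csf1* rose in tumor against neural spots (log2 fold change 1.34, standard error 0.29, edgeR adjusted p = 0.016), with ratios of 3.48 and 1.74. It also rose in edge against neural spots (log2 fold change 1.13, standard error 0.30, edgeR adjusted p = 0.045), where 10.4% of all genes were higher and 10.2% lower. That call was lost under 8 of the 17 alternative settings that gave a test, and the adjusted p-values over all 17 ran from 0.0054 to 0.14. Edge and tumor spots were not called different for *Csf1* (log2 fold change -0.22, edgeR adjusted p = 0.73).

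The balance of the ligands was read as UMIs of *Il34* per 100 UMIs of *Csf1*, which compares regions and not the genes. In section 1 it was 151.1 in tumor, 58.9 in edge and 157.2 in neural spots. In section 2 it was 309.4 in tumor, 133.3 in edge and 148.3 in neural spots. In each section the edge had the lowest ratio of the 3 regions, but no interval was taken. The edge ratio rests on 53 UMIs of *Il34* and 90 of *Csf1* in section 1, and on 184 and 138 in section 2. In section 2 it lay close to the neural ratio, so that order is uncertain.

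*Csf1r* had no common order of regions. It was 461.5 CPM (454.3 to 468.7) in tumor spots of section 1, 237.8 CPM (219.0 to 257.8) at the edge and 89.6 CPM (85.6 to 93.7) in neural spots. In section 2 it was 107.6 CPM (103.6 to 111.8) in tumor spots, 215.0 CPM (202.6 to 228.1) at the edge and 167.9 CPM (163.3 to 172.6) in neural spots. Tumor spots were thus the highest of these regions in section 1 and the lowest in section 2, and only the edge was above neural spots in both. The ratio of tumor to neural spots was 5.13 in section 1 and 0.642 in section 2, and no change was called over both (log2 fold change 1.04, standard error 0.71, edgeR adjusted p = 0.29). The edge was 2.65 and 1.28 times the neural level, also without a call (log2 fold change 0.78, standard error 0.68, edgeR adjusted p = 0.49). Against tumor spots the edge had a log2 fold change of -0.26 (edgeR adjusted p = 0.87), made of -0.95 in section 1 and 1.0 in section 2. Whether the sections differ was not tested, since each gave 1 value for each region.

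Markers of myeloid cells also differed between the regions, in part in another order than *Csf1r*. The 7 macrophage markers (*Cd68*, *Aif1*, *Itgam*, *Adgre1*, *Mrc1*, *Lyz2* and *Ms4a7*) summed to 2009, 2604 and 219.4 TMM-scaled CPM in tumor, edge and neural spots of section 1 and to 314.2, 1464 and 273.4 CPM in section 2. All 7 were higher in tumor than in neural spots of section 1 and 5 of 7 in section 2, all 7 were higher at the edge than in neural spots of both, and none was at 0. Edge spots were chosen for *Arg1*, a gene of macrophages, so their macrophage markers are not independent of the rule. The 7 microglia markers, such as *Tmem119* and *P2ry12*, summed to 1356, 1810 and 575.3 CPM and to 327.5, 1132 and 769.9 CPM, with 3 of 7 and 0 of 7 higher in tumor than in neural spots. In section 1 both sums were highest at the edge, where *Csf1r* was 0.516 times its tumor level. Single markers mostly did not share this for macrophages, since 2 of 7 were higher at that edge than in the tumor. For microglia it was 4 of 7, and in section 2 all 7 of each list. *Cd68* alone gave 1750 of the 2467 CPM of the macrophage sum at the edge of section 1, without TMM scaling. Without TMM scaling the macrophage sums of tumor and neural spots of section 2 were 273.6 and 286.0 CPM, in the opposite order. The part of these cells in the *Csf1r* levels was not tested. Per 100 UMIs of the macrophage markers there were 23.0, 9.13 and 40.8 UMIs of *Csf1r* in tumor, edge and neural spots of section 1, and 34.3, 14.7 and 61.4 in section 2. On this scale both sections had the same order, with the edge lowest and neural spots highest. Per 100 UMIs of the microglia markers there were 34.0, 13.1 and 15.6 UMIs of *Csf1r* in section 1 and 32.9, 19.0 and 21.8 in section 2, so that the edge was again lowest but tumor spots were highest. Per 100 UMIs of *Cd68*, a lysosomal protein of macrophages, there were 63.1, 12.9 and 90.6 UMIs of *Csf1r* in section 1 and 79.2, 22.1 and 180.0 in section 2. Per 100 UMIs of *Aif1*, which encodes IBA1, the edge was not the lowest region of either section, with 90.2, 102.8 and 178.2 in section 1 and 195.1, 196.8 and 198.0 in section 2.

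The IL34 receptor *Ptprz1* was lowest in the tumor and highest in neural spots of both sections. It was 23.2 CPM (21.6 to 24.8) in tumor spots of section 1 and 27.4 CPM (25.4 to 29.5) in those of section 2. At the edge it was 84.1 CPM (73.1 to 96.3) and 76.6 CPM (69.2 to 84.5). In neural spots it was 214.5 CPM (208.3 to 220.8) and 268.1 CPM (262.3 to 274.1). Both sections had the same order of tumor below edge below neural spots, with no overlap of the intervals. *Ptprz1* fell in tumor against neural spots (log2 fold change -3.25, standard error 0.26, edgeR adjusted p = 0.00084) and at the edge against neural spots (log2 fold change -1.59, standard error 0.25, edgeR adjusted p = 0.011). It rose at the edge against tumor spots (log2 fold change 1.67, standard error 0.25, edgeR adjusted p = 0.035), where 2.23% of all genes were higher and 0.0209% lower. The last call was lost without the remaining spots (adjusted p = 0.12) and with doubled tumor thresholds (adjusted p = 0.16), settings in which edgeR called 0 genes of all those tested, with 2552 and 2397 at an unadjusted p below 0.05.

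The summed markers of astrocytes had the same order of regions, as had those of neurons and of oligodendrocytes. The neuron list holds *Snap25* and the oligodendrocyte list *Mbp*, genes of the neural rule, so their high neural levels were in part set by it. The 6 astrocyte markers (*Gfap*, *Aqp4*, *Slc1a3*, *Aldh1l1*, *Gdf10* and *Slc1a2*) summed to 1499, 1680 and 2767 TMM-scaled CPM in tumor, edge and neural spots of section 1 and to 732.0, 2568 and 5969 CPM in section 2. Single markers did not all share it in section 1, where 4 of 6 were higher at the edge than in the tumor, 1 of 6 higher at the edge than in neural spots and 1 of 6 higher in the tumor than in neural spots. In section 2 these counts were 6, 0 and 0 of 6. None was at 0, and their part in the *Ptprz1* levels was not tested. Within tumor spots, the 25% richest in these markers held 52.3 CPM of *Ptprz1*, without TMM scaling, in section 1 against 3.01 CPM in the poorest 25%, and 52.5 against 14.8 CPM in section 2.

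*Sdc1*, the other alternative receptor, was lowest in neural spots. It was 242.5 CPM (237.4 to 247.8) in tumor spots of section 1 and 988.5 CPM (976.3 to 1001) in those of section 2. At the edge it was 405.6 CPM (380.9 to 431.4) and 598.2 CPM (577.3 to 619.6). In neural spots it was 9.94 CPM (8.65 to 11.4) and 21.2 CPM (19.6 to 22.9). Tumor and edge were far above neural spots in both sections, but the edge exceeded the tumor in section 1 while the tumor exceeded the edge in section 2. *Sdc1* rose in tumor against neural spots (log2 fold change 5.09, standard error 0.52, edgeR adjusted p = 0.0016) and at the edge against neural spots (log2 fold change 5.14, standard error 0.52, edgeR adjusted p = 0.0058). Edge and tumor spots were not called different (log2 fold change 0.05, edgeR adjusted p = 0.96), with 0.74 in section 1 and -0.72 in section 2.

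*Sdc1* is also a marker of plasma cells, so their other markers were set beside it. The 5 plasma cell markers (*Jchain*, *Igkc*, *Mzb1*, *Tnfrsf17* and *Derl3*) summed to 818.0, 41.0 and 18.8 TMM-scaled CPM in tumor, edge and neural spots of section 1 and to 12.3, 22.1 and 22.4 CPM in section 2. In section 1 both their sum and *Sdc1* were higher in tumor than in neural spots. In section 2 their sum was lower in the tumor, where *Sdc1* was highest. The part of plasma cells in the *Sdc1* levels was not tested. In section 1 the 25% of tumor spots richest in these markers held 149.4 CPM of *Sdc1*, without TMM scaling, against 316.5 CPM in the poorest 25%. The same spots held 13.1 and 266.1 CPM of *Arg1*, and place within the tumor was not separated from this ranking. Per 100 UMIs of the 7 epithelial markers there were 9.04 UMIs of *Sdc1* in tumor, 11.7 at the edge and 20.1 in neural spots of section 2. The list holds *Epcam*, *Krt7* and *Krt8*, whose sum chose the tumor spots of section 2 and was capped in its neural spots. The order of this ratio was therefore in part set by the rule. In section 1 the epithelial markers were too scarce in every region for the ratio to carry weight.

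The remaining spots were mixed, and in section 2 they held 13584 TMM-scaled CPM of the choroid plexus markers *Ttr*, *Kl*, *Folr1* and *Kcnj13*. *Il34* was 15.4 CPM there in section 1 and 42.1 CPM in section 2, and *Sdc1* was 63.6 and 302.7 CPM. *Csf1r* was 193.7 and 236.3 CPM, *Csf1* 25.4 and 20.3 CPM and *Ptprz1* 187.6 and 138.8 CPM.

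**Figure D2:**
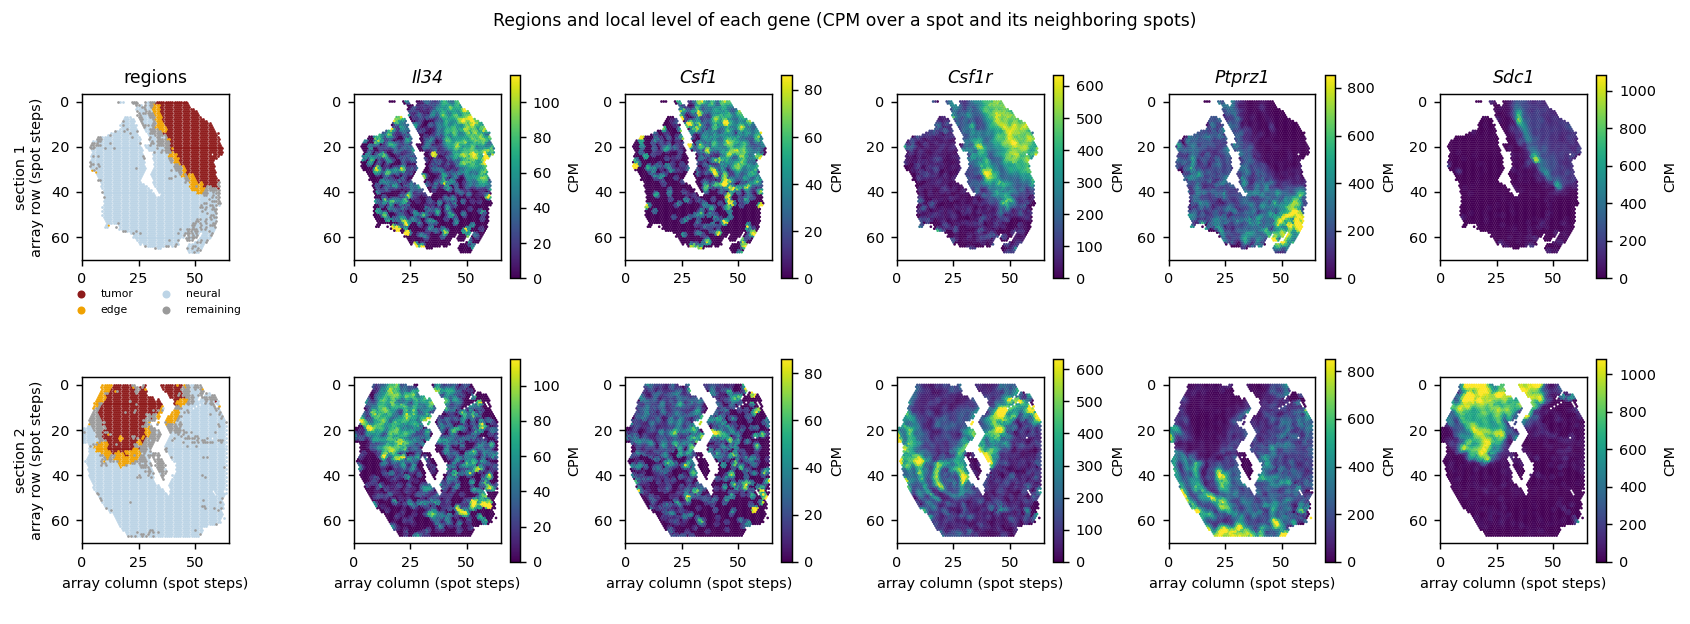
Regions (left) and local level of each gene (CPM over a spot and its neighboring spots, color) at the array position of each spot, section 1 above and section 2 below, with 1 color scale for each gene. *Il34* filled both tumors, *Ptprz1* was dark there, and *Csf1r* filled the tumor of section 1 but formed a band outside the tumor of section 2.

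To place the genes against the tumor border, spots were grouped by their steps on the array to the nearest tumor spot, or, inside the tumor, to the nearest other spot. The levels in this part are plain CPM without TMM scaling. For this purpose the edge spots that also passed the tumor rule counted as tumor, so that the inner rim holds spots chosen for *Arg1*. The tumor was then 1 connected group of 806 spots in section 1. In section 2 it was 10 groups of 737 spots in all, of which the largest held 89.8%.

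*Il34* declined across the border of both sections, more abruptly in section 1. It fell from 69.8 CPM at 3 or more steps inside to 30.4 CPM in the outer 2 steps and 19.7 CPM in the first 2 steps outside. In section 2 the same zones held 71.2, 59.9 and 39.2 CPM, and the level reached 18.1 CPM at 6 to 10 steps outside. Beyond 10 steps it was 26.6 and 22.0 CPM.

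*Csf1r* formed a shoulder outside the tumor in both sections. In section 2 it rose from 89.5 CPM deep inside and 100.7 CPM at the inner rim to 202.8 CPM in the first 2 steps outside, 347.2 CPM at 3 to 5 steps and 335.2 CPM at 6 to 10 steps, before it fell to 127.6 CPM beyond. In section 1 it was 417.4 CPM deep inside, 199.7 CPM at the inner rim and 273.8, 274.3 and 244.0 CPM in the next 3 zones, before it fell to 58.0 CPM. The zone at 6 to 10 steps was thus 4.21 and 2.63 times the far zone. *Csf1* had the same far drop, from 29.7 CPM at 6 to 10 steps to 12.3 CPM beyond in section 1 and from 19.1 to 13.2 CPM in section 2.

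*Arg1*, which set the edge, was 912.8 and 1288 CPM in the first 2 steps outside and 8.63 and 42.8 CPM at 6 to 10 steps. *Sdc1* fell through every zone outside the border, from 137.1 to 8.01 CPM in section 1 and from 436.9 to 20.3 CPM in section 2. *Ptprz1* rose through every zone from deep inside to 6 to 10 steps outside, from 18.7 to 270.9 CPM and from 16.0 to 247.5 CPM. Several values of section 2 changed when distances were taken from its largest tumor group alone. The spots of the smaller tumor groups and their surroundings then counted as outside spots. At 6 to 10 steps outside, *Arg1* was then 342.6 CPM, *Csf1r* 239.2 CPM and *Il34* 28.4 CPM, and *Sdc1* no longer fell steadily, with 215.1 CPM at 3 to 5 steps, 348.1 CPM at 6 to 10 steps and 59.8 CPM beyond. The outside levels of this setting are therefore not those of tissue that far from every tumor spot. *Csf1r* was still higher at 3 to 5 steps (328.5 CPM) than beyond 10 steps (154.0 CPM). This setting was added after the data had been seen.

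**Figure D3:**
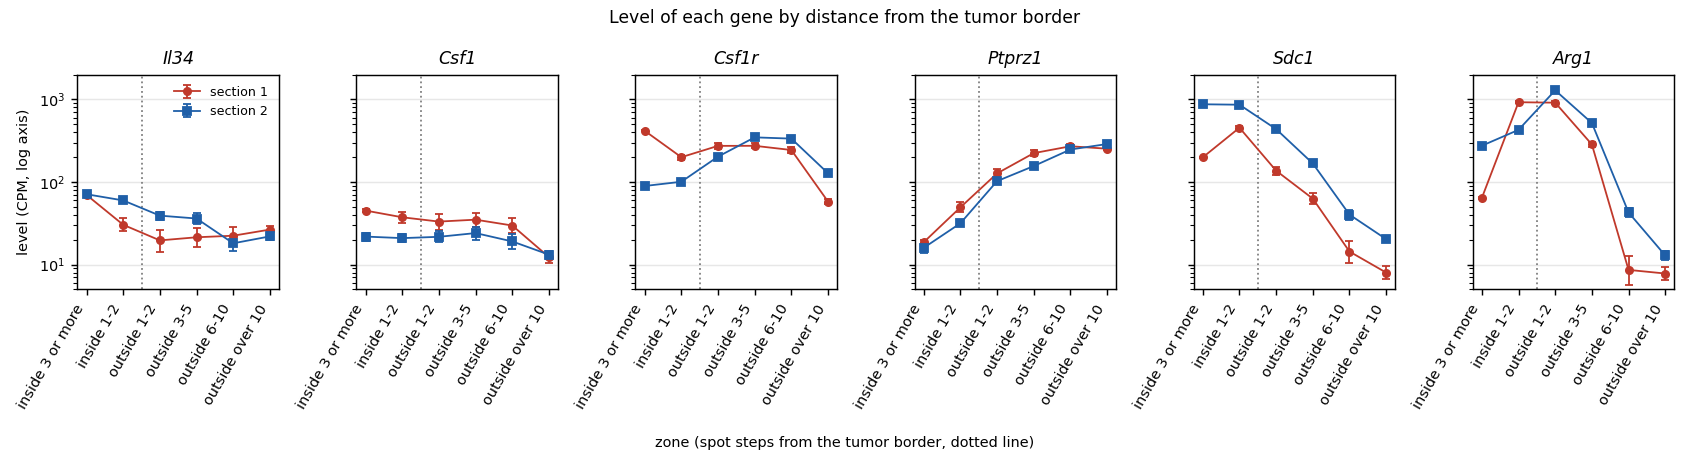
Level of the 5 genes and of *Arg1* (CPM, log axis) in zones of array steps inside and outside the tumor border (dotted line), in section 1 (red circles) and section 2 (blue squares), with exact Poisson intervals. At 6 to 10 steps *Csf1r* was 244.0 and 335.2 CPM and *Arg1* 8.63 and 42.8 CPM. With distances from the largest tumor group of section 2 alone, its values became 239.2 CPM for *Csf1r* and 342.6 CPM for *Arg1*. In that setting the smaller tumor groups counted as outside spots.

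The neural spots were then ranked by each of 16 marker lists, and each gene was compared between the richest and the poorest 25%, of 521 spots each in section 1 and 638 in section 2. These ratios are descriptions without a test, since spots of 1 section are not replicates. *Csf1r* followed the microglia markers, with 235.3 CPM in the richest and 36.2 CPM in the poorest spots of section 1 and 407.3 and 57.0 CPM in section 2. In the spots richest in the neuron markers *Snap25*, *Syt1*, *Rbfox3* and *Stmn2* it was 0.207 and 0.332 times the level of the poorest. *Csf1r* also had ratios of 4.29 and 4.97 for the macrophage list and of 4.19 and 3.03 for the astrocyte list. *Arg1* had ratios of 5.16 and 6.59 for the microglia list, and nearness to the tumor was not separated from this ranking. *Csf1* followed the microglia markers too, less steeply, with ratios of 2.53 and 2.59.

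*Il34* did not follow the myeloid lists, with ratios of 0.906 and 1.10 for microglia and 0.859 and 0.901 for macrophage markers. It differed between spots rich in markers of different neurons. Spots rich in Purkinje cell markers (*Pcp2*, *Calb1*, *Car8* and *Itpr1*) held less of it, with 14.9 against 33.3 CPM in section 1 and 11.3 against 29.4 CPM in section 2. Spots rich in granule neuron markers also held less, with ratios of 0.665 and 0.324. Spots rich in markers of projection neurons outside the cerebellar cortex, such as *Slc17a6* and *Nefh*, held more in section 2 (35.4 against 10.8 CPM) and little more in section 1 (23.3 against 19.0 CPM). *Ptprz1* went the other way for the Purkinje list, with ratios of 1.97 and 2.36, and was higher in spots rich in astrocyte markers, with ratios of 1.66 and 1.52. It was not higher in spots rich in oligodendrocyte precursor markers, where the ratios were 0.817 and 0.706. *Olig1* made up most of that list in neural spots, with 237.1 of 352.8 CPM in section 1 and 177.3 of 274.9 CPM in section 2. The oligodendrocyte list gave ratios of 0.803 and 0.571, and whether the precursor list sets precursors apart from oligodendrocytes was not tested.

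**Figure D4:**
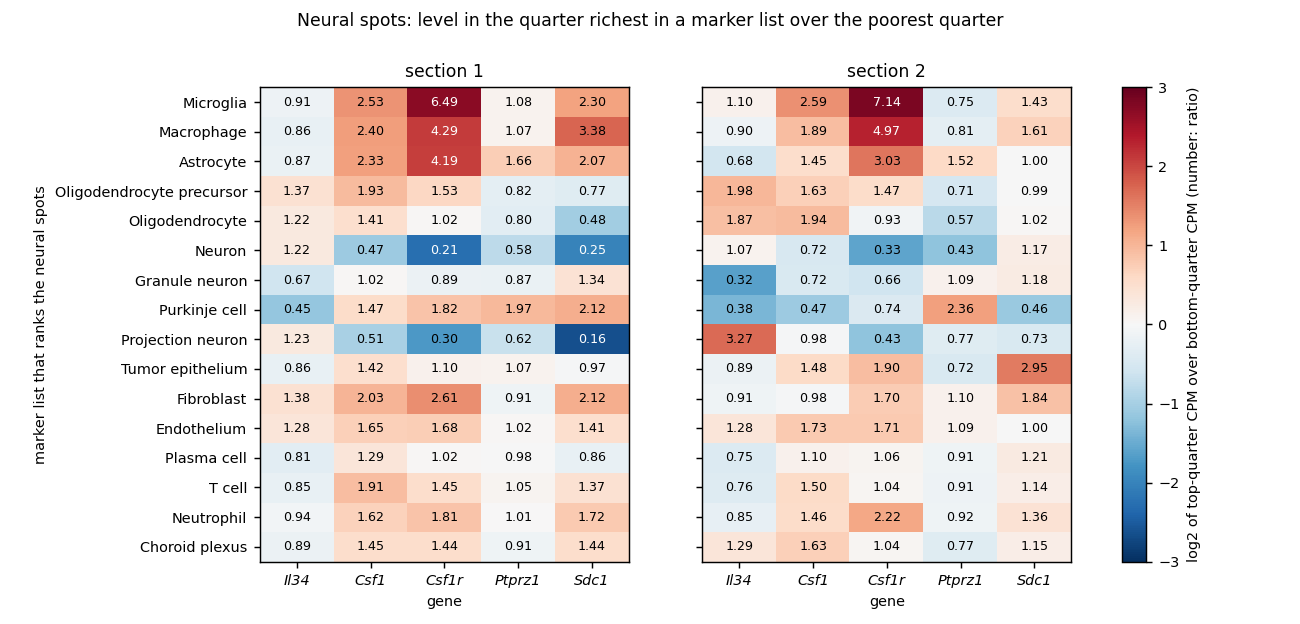
Ratio of the CPM in the 25% of neural spots richest in each of 16 marker lists to that in the poorest 25%, for the 5 genes in both sections, with color on a log2 scale. *Csf1r* had its highest ratios for the microglia list, 6.49 and 7.14, and *Il34* was below 1 for the Purkinje and granule neuron lists in both sections.

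Within tumor spots *Ptprz1* varied most of the 5 genes over the same lists, with ratios of 17.3 and 3.54 for the astrocyte, 8.06 and 4.01 for the oligodendrocyte and 7.92 and 3.72 for the neuron list. *Il34* varied between 0.668 and 1.46 over the 16 lists in section 1 and between 0.808 and 1.26 in section 2, where the epithelial list gave the highest ratio (74.5 against 59.3 CPM). In section 1, the highest ratio for *Il34* was that of the plasma cell list, which also gave the highest for *Csf1r* (480.9 against 274.2 CPM). That list had a ratio of 0.0493 for *Arg1*, and place within the tumor was not separated from these rankings. *Csf1r* followed the microglia and macrophage lists inside the tumor of section 2, with ratios of 2.92 and 2.44, but not inside that of section 1, with 1.17 and 0.853.

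Rank correlations between ligands and receptors were taken over 3315 spots of section 1 and 3999 of section 2. They are given as descriptions, because neighboring spots share cells, depth and place. *Il34* and *Csf1r* had a Spearman rho of 0.35 in section 1 and -0.04 in section 2 on CPM. Over tiles of 6 array rows by 12 columns they had 0.51 (93 tiles) and -0.14 (117 tiles), and with the ligand summed over the neighboring spots 0.38 and -0.05. The sections therefore differed in sign at each of these scales. *Csf1* and *Csf1r* had 0.45 and 0.08 over spots and 0.76 and 0.27 over tiles.

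The pairs of *Il34* with the other receptors had the same sign in both sections. *Il34* with *Ptprz1* had -0.28 and -0.24 over spots and -0.64 and -0.63 over tiles, and *Il34* with *Sdc1* had 0.42 and 0.41 over spots and 0.37 and 0.58 over tiles. Of *Arg1*, the rho over spots was 0.17 and 0.33 with *Il34*, 0.33 and 0.27 with *Csf1*, and 0.36 and 0.12 with *Csf1r*. Over tiles it was 0.04 and 0.44 with *Il34*, 0.46 and 0.49 with *Csf1*, and 0.49 and 0.33 with *Csf1r*.

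Within regions most of these values lay near 0. Within neural spots *Il34* with *Csf1r* had 0.02 and -0.02, *Il34* with *Ptprz1* -0.05 and -0.01, and *Il34* with *Sdc1* 0.02 and 0.00. Only 19.5% and 19.8% of neural spots held a UMI of *Il34*, so these values near 0 say little. Within tumor spots *Il34* with *Csf1r* had 0.21 and -0.06. *Arg1* with *Il34* was positive within no region. It had -0.23 and -0.02 within tumor, -0.12 and -0.13 within edge and -0.00 and -0.01 within neural spots. The largest value within a region was -0.59, of *Arg1* with *Csf1r* in the tumor of section 1, against -0.02 in that of section 2. *Csf1r* with *Sdc1* was negative within tumor spots (-0.43 and -0.31) and within edge spots (-0.29 and -0.37) of both sections, although over all spots the pair had 0.57 and 0.01. Raw UMIs gave higher values than CPM for *Il34* with *Csf1r*, 0.60 and 0.27. After each spot was thinned to 2000 UMIs the pair had 0.03 and -0.02, but then 6.7% of spots of section 1 still held a UMI of *Il34*, so that this value says little.

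**Figure D5:**
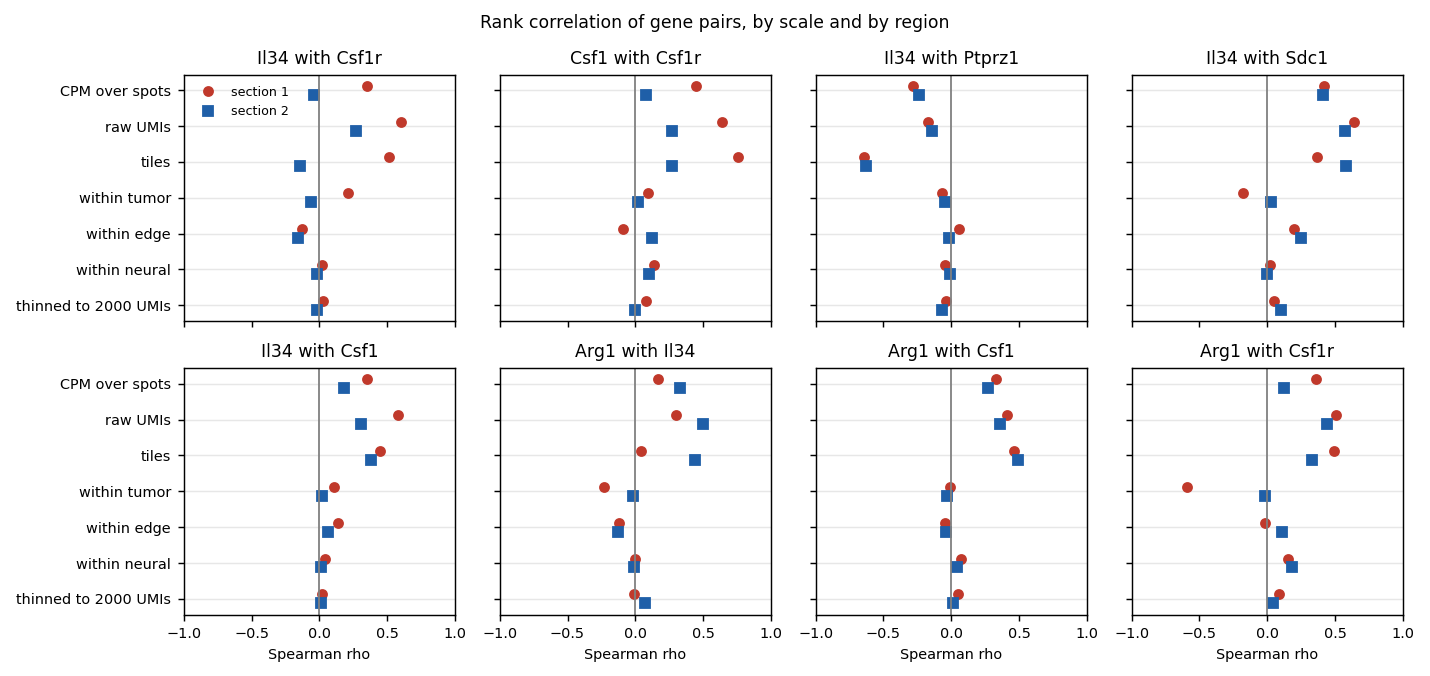
Spearman rho of 8 gene pairs in section 1 (red circles) and section 2 (blue squares), over all spots on CPM or raw UMIs, over tiles, within tumor, edge and neural spots, and after thinning to 2000 UMIs. *Il34* with *Csf1r* had opposite signs in the sections over spots on CPM and over tiles, but not on raw UMIs (0.60 and 0.27), and most values within a region lay near 0.

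The genes with the pattern most like each of the 5 were taken by the lower of the rho values of the sections over these tiles, among 9696 genes. For *Csf1r* they were *Aif1*, *C1qb* and *C1qc*, with a lower rho of 0.90, 0.89 and 0.89, where the C1q genes encode chains of the complement protein C1q. For *Ptprz1* they were *Luzp2*, *Ntm* and *Gpm6b* (0.87, 0.86 and 0.86), and for *Sdc1* they were *Capg*, *Cd44* and *Cdc42se1* (0.83, 0.82 and 0.81), of which *Cd44* encodes the hyaluronan receptor. The ligands had less like partners. For *Il34* these were *C1galt1*, *Sept9* and the kinase gene *Akt1* (0.69, 0.69 and 0.68), and for *Csf1* they were *Fscn1*, *Xaf1* and *Pkp1* (0.63, 0.61 and 0.61).

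Around these genes, 5 lists of the pathway were counted, 44 genes in all, and every one was tested. In tumor against neural spots 12 of them were higher and 7 lower, where 17.9% and 16.9% of all genes were. At the edge against neural spots 17 were higher and 2 lower, beside 10.4% and 10.2% of all genes. At the edge against tumor spots 2 were higher and 0 lower, beside 2.23% and 0.0209%. Their median log2 fold change was 1.01, 1.35 and 0.43 in these comparisons, against -0.12, -0.01 and -0.01 over all genes. Within sections 1 and 2 their medians were 1.51 and 0.30, 1.39 and 1.17, and 0.12 and 0.84.

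Of the 12 genes that relay the signal of CSF1R inside the cell, 5 were higher in tumor against neural spots, beside 17.9% of all genes. None was lower. The higher genes included *Plcg2*, a phospholipase (log2 fold change 3.17, edgeR adjusted p = 0.0016). *Plcg2* was 123 and 398 CPM in tumor spots of sections 1 and 2, against 20.5 and 29.9 CPM in neural spots. DESeq2 called 8 of the 12 in tumor against neural spots, in either direction, and over all genes 4662 higher and 3191 lower. The list's median was 2.07 in section 1 and 0.41 in section 2. *Tyrobp*, the adaptor of myeloid receptors, was 546, 782 and 79.9 CPM in tumor, edge and neural spots of section 1 and 114, 699 and 102 CPM in section 2, and was called at the edge alone (log2 fold change 2.97, edgeR adjusted p = 0.027 against neural spots). In all, 4 of 12 were higher at the edge than in neural spots, beside 10.4% of all genes. The edge was chosen for the macrophage gene *Arg1*, so a call of a myeloid gene such as *Tyrobp* there is not independent of the rule.

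Of the 9 myeloid transcription factors, 5 were higher at the edge than in neural spots (among them *Runx1* and *Egr2*), beside 10.4% of all genes, and 2 were higher in the tumor than in neural spots (*Runx1* and *Ets2*), beside 17.9%. DESeq2 called 7 of 9 in each of these comparisons, in either direction. Over all genes it called 2818 higher and 2522 lower at the edge against neural spots, and 4662 and 3191 in the tumor. At the edge against the tumor itself edgeR called 0 of 9, with 1 at an unadjusted p below 0.05, and DESeq2 called 1. Over all genes DESeq2 called 1110 higher and 215 lower in that comparison. The macrophage markers given above, all 7 of them higher at the edge than in neural spots, moved in the same comparison, and their part was not tested. Edge spots were chosen for *Arg1* and neural spots for neuron and myelin genes, so these counts are not independent of the region rules. *Runx1* had a log2 fold change of 3.26 at the edge (edgeR adjusted p = 0.0054) and of 3.52 in the tumor (edgeR adjusted p = 0.00083). In tumor spots of sections 1 and 2 *Runx1* was 62.8 and 120 CPM and *Ets2* was 84.2 and 440 CPM. The median log2 fold change of the 9 factors in tumor against neural spots was 1.96 in section 1 and 0.26 in section 2. *Spi1*, which encodes PU.1, a factor that acts on the *Csf1r* gene, was 217 and 37.7 CPM in the tumor spots of sections 1 and 2 and was not called there (edgeR adjusted p = 0.11).

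Of the 9 other colony-stimulating factors and class III receptor kinases, 3 were higher at the edge than in neural spots, beside 10.4% of all genes. These were *Csf2*, *Csf2ra* and *Csf2rb*, which are GM-CSF and its receptor chains. *Csf2* was low, with 7.65 and 12.4 CPM at the edge against 2.34 and 2.04 CPM in neural spots. *Csf2rb* was 17.7 and 20.1 CPM at the edge against 1.55 and 2.14 CPM in neural spots (log2 fold change 3.34, edgeR adjusted p = 0.015). The edge was chosen for the macrophage gene *Arg1*, so calls of myeloid genes there are not independent of the rule. In the tumor against neural spots 1 of the 9, *Csf3*, was called higher and 1 lower, beside 17.9% and 16.9% of all genes. The lower gene was *Flt3*, a cytokine receptor of early blood cells and dendritic cells (log2 fold change -2.52, edgeR adjusted p = 0.039). Its log2 fold change was -1.21 in section 1 and -3.67 in section 2. *Csf3*, which encodes G-CSF, had a log2 fold change of 3.34 (edgeR adjusted p = 0.043) that came from section 2, with 4.59 against 0.20 CPM, while section 1 had 0.202 against 0.188 CPM.

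The ligands and partners of PTPRZ1 were lower in the tumor than in neural spots for 6 of 7 genes, beside 16.9% of all genes, among them *Cntn1* (log2 fold change -3.72, edgeR adjusted p = 0.0010) and *Ptn*, which encodes pleiotrophin (log2 fold change -1.35, edgeR adjusted p = 0.0054). The 4 neuron markers summed to 121.4 TMM-scaled CPM in tumor against 2667 CPM in neural spots of section 1 and to 66.5 against 3196 CPM in section 2, and their part was not tested. *Snap25*, which is among them, also chose the neural spots, so this contrast was in part set by the rule. The exception was *Tnc*, the matrix protein tenascin C, at 582 and 3410 CPM in tumor against 26.9 and 41.8 CPM in neural spots (log2 fold change 5.40, edgeR adjusted p = 0.0020). *Tnc* was also higher at the edge (log2 fold change 5.48, edgeR adjusted p = 0.0062), while *Ptn* and *Cntn1* were lower there. *Tnr*, a tenascin of the brain, and *Nrcam*, a neuronal adhesion molecule, were lower in the tumor than in neural spots (log2 fold changes -3.11 and -2.93) and higher at the edge than in the tumor (2.43 and 2.38, edgeR adjusted p = 0.039 and 0.026).

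Of the other syndecans and the genes that handle them, 3 of 7 were higher in the tumor and 4 of 7 at the edge, all against neural spots, beside 17.9% and 10.4% of all genes. *Ext1*, a heparan sulfate polymerase, had log2 fold changes of 3.07 and 2.11 (edgeR adjusted p = 0.0025 and 0.014), and *Sdcbp*, which encodes syntenin, 1.11 and 1.58 (edgeR adjusted p = 0.014 and 0.0094). *Adam17*, a protease that sheds membrane proteins, was called in both comparisons. *Hpse*, the heparanase gene, was called at the edge alone (log2 fold change 3.49, edgeR adjusted p = 0.037). In sections 1 and 2 *Hpse* was 46.6 and 3.2 CPM in tumor, 59.1 and 40.6 CPM in edge and 6.42 and 3.24 CPM in neural spots. *Sdc2*, *Sdc3* and *Sdc4* passed the test in none of the comparisons. *Sdc2* was 521 CPM in the tumor of section 1 and 67.5 CPM in that of section 2.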

How the data were processed

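Sections of formalin-fixed tissue from 2 mice were read by Visium CytAssist. The authors detected tissue and counted probes with Space Ranger 2.1.1 against mm10, per the labels, and what they deposited were unnormalized UMI counts for every gene in every spot under tissue. Sections held 63986887 and 71878333 UMIs over 3406 and 4017 spots. Spots with under 500 UMIs or 10 genes, 91 and 18, were left out. The members and gene lists were chosen with earlier results of these data known. UMIs were summed by section and region and tested with edgeR 4.0.16, with filterByExpr, TMM factors (0.871 to 1.19), glmQLFit and the section as a block. Regions of a section come from 1 animal, which is the pairing, and leaving out the block raised the common dispersion from 0.0912 to 0.164. A fold change within a section was taken after adding 0.5 CPM. Named genes were the 5, up to 3 list genes called in each direction per comparison, and the 3 most like each; other list genes were chosen after their values were seen, and some items are not reported here. Alternatives were DESeq2 1.42.0, other scalings, filters, region rules and each section alone. The edgeR step was tested on simulated data that held no difference between sections, so that test does not cover genes whose change differs between them. Free probe signal can spread to neighboring spots and was not corrected.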

Additional observations from a re-analysis of the deposited data

How the results depend on the processing

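The log2 fold changes of the 5 genes were recomputed under 17 alternatives with a test and within each section. *Il34* in tumor against neural spots was called under every alternative with a test, as were *Ptprz1* and *Sdc1* against neural spots in both comparisons and *Csf1* in the tumor. Within single sections, which give no test, values ran from -0.64 to 2.36 for *Csf1r* in tumor against neural spots, from -0.08 to 0.78 for *Il34* at the edge against neural spots, from -3.27 to -3.18 for *Ptprz1* in the tumor, from 4.78 to 5.28 for *Sdc1* at the edge against neural spots, and, at the edge against the tumor, from -0.49 to 0.12 for *Csf1*, from -0.95 to 1.0 for *Csf1r* and from -0.72 to 0.74 for *Sdc1*. *Csf1* at the edge against neural spots lost its call when library size alone set the scale (0.91), without the replicate block (1.15), without the remaining spots (1.12), with doubled tumor thresholds (0.99), with *Arg1* limits of 500 (1.09) or 2000 CPM (0.94), and with spots that pass both rules counted as tumor (1.10) or left out (1.10). *Sdc1* at the edge against the tumor turned to -0.04 under DESeq2 and with RLE factors, -0.29 without the block, -0.01 without the remaining spots, -0.17 with 2000 CPM of *Arg1*, and -0.92 and -0.88 with spots of both rules counted as tumor or left out, never past the threshold. *Il34* at the edge against the tumor was called under DESeq2 (-1.57, adjusted p = 0.011), and *Ptprz1* there was not called without the remaining spots (1.67) or with doubled thresholds (2.15).

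For genes called over the whole panel, edge against neural spots gave 3951, and 2626 without the block, 2214 without the remaining spots and 2161 with doubled thresholds. Edge against tumor gave 431, and 284 without the block, 0 without the remaining spots and with doubled thresholds, 1325 under DESeq2, and 804 and 806 with spots of both rules counted as tumor or left out. Called pathway genes went from 19 to 30 in the tumor under DESeq2, and from 19 to 10 at the edge without the remaining spots. At the edge against the tumor they went from 2 to 6 (DESeq2), 4 (library size) and 0 (without the remaining spots, doubled thresholds). Over all genes DESeq2 changed the tumor calls from 3421 higher and 3245 lower to 4662 and 3191. When library size alone set the scale, the median of all genes moved from -0.12 to -0.45 in tumor against neural spots, from -0.01 to -0.22 at the edge against neural spots and from -0.01 to 0.11 at the edge against the tumor, and the share of higher calls from 51.3% to 31.9% and from 50.5% to 38.6% in the first and second; under DESeq2 it was 83.8% in the third, against 99.1%. The cause was not tested. The block changed no other call of the 5 genes, and no count could be had from a single section. Deep tumor spots and shallow neural spots limit rank correlations, which stayed between -0.07 and 0.10 for the 4 *Il34* pairs after thinning.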
